A study of Procambarus virginalis with 4 samples.

Results

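Gene models that kept most of their gene body methylation after *Dnmt1* knockdown are described here. They were chosen by the measured methylation values themselves. A gene model entered when both control animals were at 50% or more but not both at 90% or more, and when each of the knockdown (KD) animals was at 80% or more of the mean of the controls. Of the 13478 gene models in the table, 2294 met the condition on the controls and are called candidates. Of these, 51 met the condition in both KD animals, which is 2.22% of the candidates. The other 2243 candidates serve as the comparison at the same starting level.

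The values come from whole-genome bisulfite sequencing of hemocytes, immune cells that circulate in the hemolymph. The animals were marbled crayfish, *Procambarus virginalis*, which reproduce clonally. The Dnmt1 KD group held 2 animals injected with double-stranded RNA against *Dnmt1* (dsDnmt1), and the control group held 2 animals injected with double-stranded RNA against GFP (dsGFP), a jellyfish gene that the crayfish lacks. All 4 animals were bled 28 days post-injection. The study used laboratory-raised females aged between 1 and 3 years. The RNA was injected into the hemolymph, and the study measured lower *Dnmt1* transcript levels in several tissues besides hemocytes. The reduction differed between tissues and was not significant in gills, ovary and hematopoietic tissue. Bisulfite converts cytosines that carry no methyl group, and the methylation level of a site is the percent of its reads in which the cytosine was protected. Each deposited value is the average of that level over the CpG sites of 1 gene model in 1 animal. The number of reads and of sites behind each value is unknown, so no counting interval is given, and error is judged only by how far the animals of 1 group lie apart. Hemocytes are a mixture of cell types. A changed share of a cell type and a changed methylation level within cells cannot be told apart in these values.

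Dnmt1 is the maintenance methyltransferase. After each round of DNA replication it copies methylation from the old strand onto the new one, so that without it the mark is diluted as cells divide. In many invertebrates, methylation is concentrated in the bodies of a subset of genes and is sparse elsewhere, and these methylated genes are often broadly expressed. The table pairs its identifiers with no gene names, so the functions of the kept gene models, the level of *Dnmt1* and markers of hemocytes were not read here. An identifier consists of a prefix beginning with WNGS, a number and, in most cases, a further number followed by the word covsplit.

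To see how unusual a kept level was, each KD animal was read against the mean of the controls. KD 1 was at 80% or more of that mean in 264 candidates (11.5%), and KD 2 in 177 candidates (7.72%). Had the KD animals been independent of each other, the product of these shares would have given 20.4 gene models kept in both. The observed number was 51, or 2.50 times the product. A further 213 candidates were kept in KD 1 alone, 126 in KD 2 alone and 1904 in neither. Both ratios have the same control mean as their denominator. A control mean that happens to lie low therefore raises both of them, and the product is not a test. With control 1 left out, so that control 2 alone set the candidates and the denominator, 94 gene models were kept in both KD animals against a product of 38.2. With control 2 left out instead, the numbers were 56 and 20.1. Both readings still divide the KD animals by 1 shared control, so they do not remove the effect of a shared denominator.

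The controls show how often a single animal passes the same limit without knockdown. Control 2 was at 80% or more of control 1 in 90.6% of the candidates, and control 1 at 80% or more of control 2 in 96.0%. Both controls had to be at 50% or more for a gene model to be a candidate, which removes rows with a very low control, while no such condition was set on the KD animals. These shares are therefore a description and not a like-for-like background. Over the candidates, the median level of KD 1 was 62.2% of control 1 and 66.0% of control 2. The median level of KD 2 was 57.0% of control 1 and 60.1% of control 2.

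**Figure D1:**
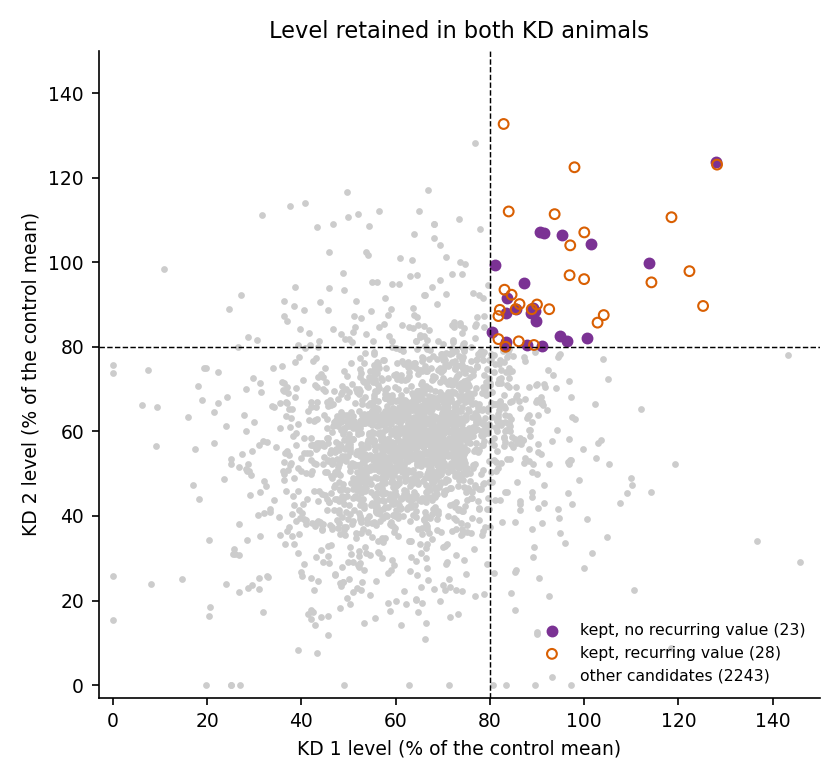
Each point is 1 of the 2294 candidates, with the level of KD 1 (horizontal axis) and of KD 2 (vertical axis) as a percent of the mean of the controls, and dashed lines at 80%. The 51 kept gene models fill the upper right corner, 23 of them without a recurring value (filled) and 28 with at least 1 (open), while the 2243 other candidates (gray) lie mostly below both lines.

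The kept gene models started from the same level as the other candidates and differed from them in the KD animals, as the choice requires. In KD 1 the kept gene models had a median of 66.7% and the other candidates one of 45.7%. In KD 2 the medians were 67.5% in kept gene models and 41.4% in other candidates. In control 1 the medians were 73.4% in kept gene models and 75.5% in other candidates, and in control 2 they were 71.4% in both. The mean of the controls ran between 58.3% and 92.3% over the kept gene models. Their KD average was lower than the control average by over 10 percentage points, the limit for differential methylation used in the study, in 12 of 51. The same was true of 35.9% of all gene models in the table and of 2223 of the other candidates. These values belong to the contrast that chose the gene models and are given as a description.

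The order of the 4 animals within a kept gene model varied. In 14 of 51 the KD average was at or above the control average, and in 17 both KD animals lay below both controls. At least 1 KD animal reached the level of the lower control in the other 34. Both KD animals lay above both controls in a single gene model. In the other candidates, the KD average reached the control average in 0.0892%, and each KD value was under each control in 94.6%. Over the whole table, these shares were 20.4% and 56.2%. Each KD value was above each control in 1.65% of the table and in 0 other candidates. The limit on the KD values favors a smaller loss, so the differences from the other candidates follow in part from the choice. Among the kept gene models, KD 1 was above KD 2 in 24, below it in 23 and equal to it in 4. Among the other candidates KD 1 was above KD 2 in 65.1%, and the difference from the kept gene models was not tested.

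Values at the limit itself show how close the neighbours are. The gene model nearest to the limit from inside was WNGS01082102.1178691_1_covsplit, with 62.5% in KD 1 and 60.0% in KD 2, against 66.7% in control 1 and 83.3% in control 2. Its KD 2 value was at 80% of the control mean and entered because values were compared with a tolerance of 1e-06. The next were WNGS01025475.716557_0_covsplit, whose lower KD animal was at 80.2% of the control mean, and WNGS01006290.453099_0_covsplit, at 80.3%. Just outside lay WNGS01092210.1242765_1_covsplit at 79.7%, WNGS01055418.978455_1_covsplit at 79.6% and WNGS01024790.711842_0_covsplit at 79.5%. The limit thus cut through a continuous range of values.

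Recurring values were more frequent among the kept gene models. They were no condition of the choice but are read from the same values that made it. A value is called recurring here when at least 5 gene models hold the same deposited value in the same animal, for example 80% in KD 2, which 27 gene models shared, 7 of them kept. Such a value was found in at least 1 animal in 28 of the 51 kept gene models (54.9%) and in 590 of the 2243 other candidates (26.3%). In all 4 animals it was found in 12 kept gene models (23.5%) and in 160 other candidates (7.13%). A related measure counts simple fractions, meaning values that equal a ratio of whole numbers with a denominator of at most 20 within the same tolerance. All 4 values were simple fractions in 19 kept gene models (37.3%), against 204 other candidates (9.09%). The share of candidates kept in both KD animals was 8.52% where all 4 values were simple fractions and 1.30% where none was. The study's methods name a minimum of 10 CpGs per gene, and no source used here says how rows with 4 simple fractions came about under it. The part of these rows in the result was not tested.

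Rows with recurring values also passed the limit more often in a single animal. KD 1 was kept in 20.2% of the 618 candidates with a recurring value and in 8.29% of the 1676 without one. KD 2 was kept in 16.7% of those with a recurring value and in 4.42% of those without. The product of the shares gave 20.8 gene models among candidates with a recurring value, where 28 were observed. Among candidates without one it gave 6.14, where 23 were observed. The observed number was thus 1.34 times the product in candidates with a recurring value and 3.75 times the product in candidates without.

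The shared denominator was then removed by reading each KD animal against a control of its own. When KD 1 was read against control 1 and KD 2 against control 2, 19 candidates without a recurring value were kept in both, against a product of 8.35. With the controls exchanged the count was again 19, against a product of 8.36. In candidates with a recurring value the counts were 20 against a product of 25.5, and 25 against a product of 26.8 with the controls exchanged. Without a shared control, the observed number therefore exceeded the product in candidates without a recurring value (2.27 times in both arrangements) and fell short of it in candidates with one (0.785 and 0.934 times). The difference between these kinds of candidates was not tested.

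**Figure D2:**
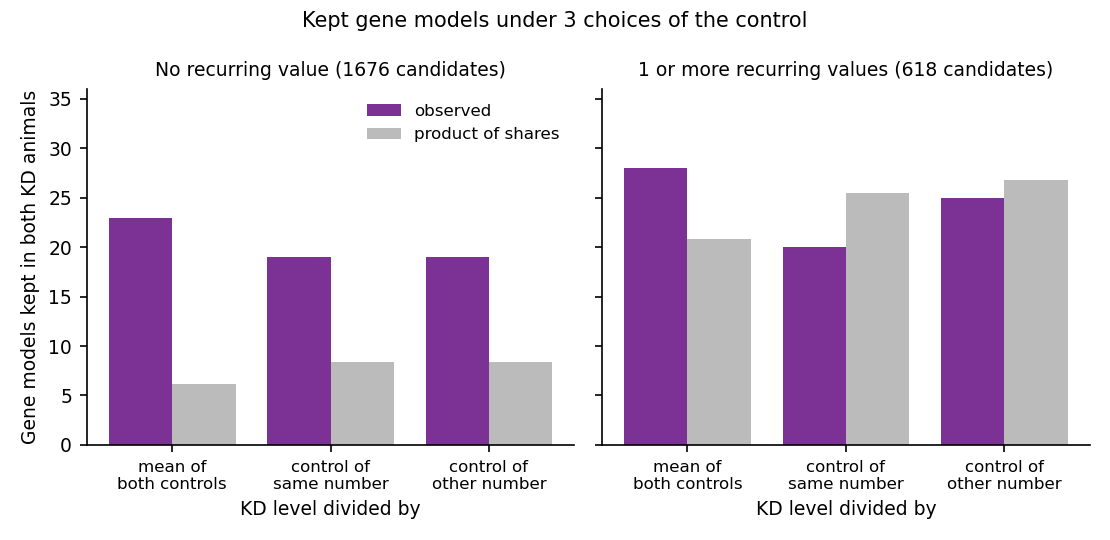
Bars give the number of candidates kept at 80% or more in both KD animals (purple) and the product of the shares of KD 1 and KD 2 (gray), for candidates without (left) and with (right) a recurring value, under 3 choices of the control by which a KD level was divided. On the left the observed numbers of 23, 19 and 19 lie above products of 6.14, 8.35 and 8.36, and on the right the observed numbers exceed the product only for the mean of both controls.

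The same arrangement shows how far a kept level in one animal carried over to another. Of the 247 candidates in which KD 1 kept 80% of control 1, KD 2 kept 80% of control 2 in 39 (15.8%). These 39 were 16.2% of the 241 candidates in which KD 2 kept 80% of control 2. Among the 2047 candidates in which KD 1 fell short, KD 2 was kept in 9.87%. Limited to candidates without a recurring value, KD 2 was kept in 19 of the 125 that KD 1 had kept and in 93 of the 1551 that it had not. The median level of KD 2 was 64.7% of control 2 in the 125 and 60.1% in the 1551. In the 125 the lower quartile was at 55.8% and the upper quartile at 74.6% of control 2. When KD 2 and control 1 made the selection instead, KD 1 was kept against control 2 in 28.4% of the 67 selected candidates without a recurring value. It was kept in 11.8% of the 1609 others, and the medians were 70.2% and 66.4%. With a recurring value both medians of this arrangement were 62.5%. Over all candidates they were 65.5% in the selected and 66.0% in the others, while in the remaining arrangements the median over all candidates was higher in the selected. The 4 arrangements read the pairings of the preceding paragraph from either side, so the direction of their kept shares follows from the counts and products given there. Without a recurring value, the kept share was accordingly higher in the selected candidates. With a recurring value it was lower, for example 20 of the 122 selected on KD 1 and control 1 against 109 of the 496 others. These differences were not tested.

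Gaps between the animals of a group moved with membership. The controls differed by a median of 15.1 percentage points in the kept gene models and by 6.50 in the other candidates. A gap of over 10 points was found in 33 of 51 kept gene models (64.7%) and in 32.1% of the other candidates. The KD animals differed by a median of 5 points in the kept gene models and by 8.63 in the other candidates, although a small gap in KD animals follows in part from both having to lie above 80% of the control mean. The control gap was wider also without recurring values, with a median of 11.3 points in the 23 kept gene models and 5.27 in the 1653 other candidates. In that subset, 13 of 404 candidates with a control gap of over 10 points were kept (3.22%), against 4 of 797 with a gap of up to 5 points (0.502%). The observed number exceeded the product in each of these classes, at 13 against 3.68 and at 4 against 1.34. The part of the control gap in the count was not tested.

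Candidates of the same control level were compared in classes 5 points wide. The share kept in both KD animals ran from 0% in the 90 candidates between 50% and 55% to 3.66% in the 273 candidates between 60% and 65%. The classes between 60% and 75% held 10, 10 and 11 kept gene models, and the class between 75% and 80% held 4 of 356. The class between 85% and 90% held 1 of 253 and that between 90% and 95% held 5 of 167. The observed number was above the product of the shares in 7 of 9 classes, and the products summed to 21.9 over all of them, close to the 20.4 obtained without classes. The median retained level changed little between classes, from 60.3% to 65.8% of the control mean in KD 1 and from 56.7% to 60.0% in KD 2. No trend of the kept share with the level was read from counts this small.

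**Figure D3:**
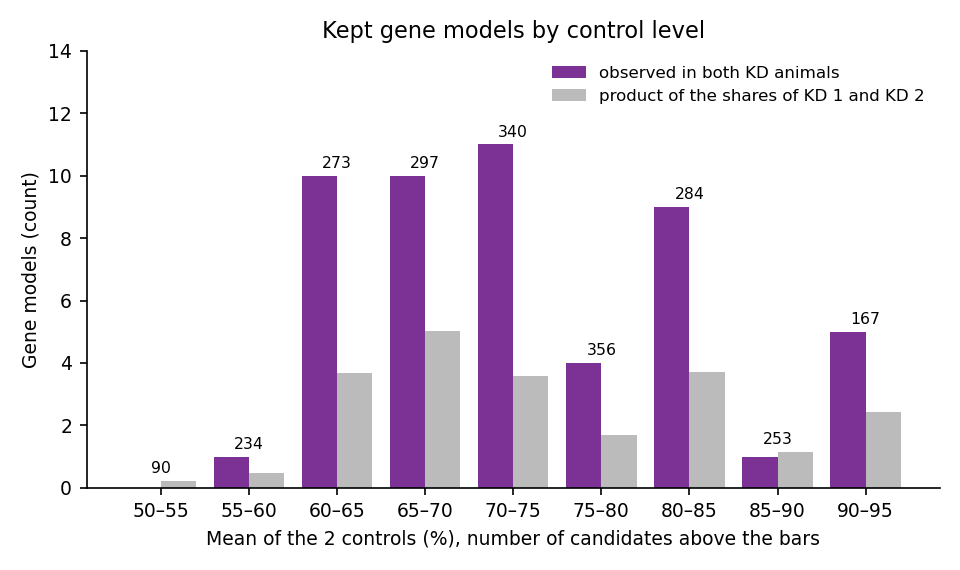
Kept gene models (purple) and the product of the shares of KD 1 and KD 2 (gray) are counted in classes of the mean of the controls, each 5 percentage points wide, with the number of candidates written above. Counts of 10, 10 and 11 stand between 60% and 75%, and the observed number lies above the product in 7 of 9 classes.

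The 23 kept gene models without a recurring value are described first, as each of their values is shared by fewer than 5 gene models. This limit is a choice. When 2 gene models sufficed, 36 of the 51 kept gene models had a recurring value, and so did 874 of the 2243 other candidates (39.0%). In KD 1 the 23 ran between 50% and 84.5%, with a median of 65.1%. In KD 2 they ran between 48.3% and 86.6%, with a median of 64.3%. In control 1 the range was 60.0% to 89.8%, and in control 2 it was 50.7% to 90.2%. In 10 of them both KD animals lay below both controls, and in 13 the groups overlapped or the order was turned. Each KD value was under each control in 1621 of the 1653 other candidates without a recurring value (98.1%). Over the whole table this share was 56.2%. The difference from the other candidates follows in part from the limit on the KD values.

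WNGS01051455.944010_0_covsplit had the highest retained level of these. It was at 84.5% in KD 1 and 81.7% in KD 2, against 75.7% in control 1 and 56.4% in control 2. It was the only kept gene model in which both KD animals lay above both controls. The KD average was 83.1% ± 2.02 and the control average 66.0% ± 13.7 (SD, n = 2 each). The KD average was the higher by 17.1 percentage points. The controls lay 19.4 points apart, which is wider than that difference.

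WNGS01059977.1002451_0_covsplit was at 80.5% in KD 1 and 82.7% in KD 2, against 68.6% in control 1 and 90.2% in control 2. Both KD values fell between the controls. WNGS01167089.2504520_0_covsplit was at 68.7% in KD 1 and 60.2% in KD 2, against 70.0% in control 1 and 50.7% in control 2, and again both KD values fell between the controls. The controls lay 21.6 points apart in the first of these gene models and 19.3 points apart in the second, and each difference between the KD and control averages was smaller than that.

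A set with closer controls followed. WNGS01164610.2195374_0_covsplit was at 75% in KD 1 and 83.8% in KD 2, against 81.3% in control 1 and 76.2% in control 2. WNGS01009888.602203_0_covsplit was at 57.9% in KD 1 and 67.5% in KD 2, against 66.0% in control 1 and 60.4% in control 2. WNGS01164800.2200334_0_covsplit was at 73.2% in KD 1 and 86.6% in KD 2, against 79.7% in control 1 and 81.9% in control 2. In each of the 3 gene models KD 1 lay below both controls and KD 2 above both. Their KD averages differed from the control averages by 0.680, -0.538 and -0.883 percentage points. The controls of the last differed by 2.11 points and its KD animals by 13.3 points, so here the spread was on the side of the knockdown.

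In others the KD animals were nearly equal and slightly below the controls. WNGS01029257.748345_0_covsplit was at 74.6% in KD 1 and 74.7% in KD 2, against 89.8% in control 1 and 77.7% in control 2. WNGS01000672.79865_2_covsplit was at 65.1% in KD 1 and 64.3% in KD 2, against 66.9% in control 1 and 78.5% in control 2. The KD averages were lower by 9.07 and by 8.02 percentage points, and in both gene models each KD animal lay below each control. The controls lay further apart than the averages in both, at 12.1 and 11.6 points.

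**Figure D4:**
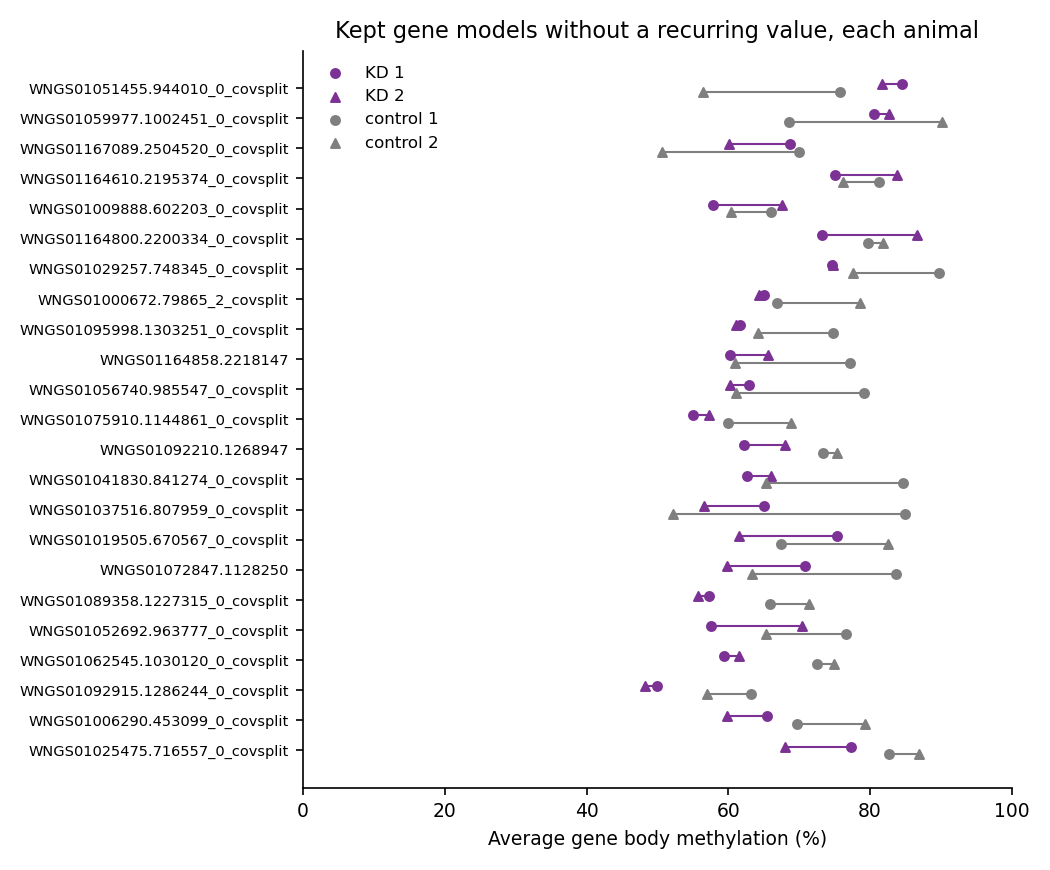
The average gene body methylation of the 23 kept gene models without a recurring value is plotted for each animal (KD 1 and KD 2 in purple, controls 1 and 2 in gray, with a line joining the animals of a group), ordered by the retained level of the lower KD animal from top to bottom. WNGS01051455.944010_0_covsplit at the top is the only one with both KD animals above both controls, and near the bottom the KD animals lie mostly to the left of the controls.

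The 4 kept gene models with the smallest gaps within groups differed in what they showed. WNGS01062545.1030120_0_covsplit had the smallest gaps, with 59.3% in KD 1 and 61.6% in KD 2, against 72.6% in control 1 and 74.9% in control 2. Its KD average was 60.5% ± 1.58 and its control average 73.7% ± 1.65 (SD, n = 2 each). The difference was -13.3 percentage points, with no overlap. WNGS01089358.1227315_0_covsplit was similar, with 57.2% in KD 1 and 55.7% in KD 2, against 65.9% in control 1 and 71.3% in control 2. WNGS01053261.966882_0_covsplit, which has recurring values in 2 animals, was at 60.0% in KD 1 and 64.3% in KD 2, against 63.6% in control 1 and 60.0% in control 2. The difference was -12.2 percentage points in WNGS01089358.1227315_0_covsplit and 0.325 in WNGS01053261.966882_0_covsplit. The remaining one, WNGS01164858.2215496, is described with its prefix and had a difference of -7.5 percentage points. WNGS01062545.1030120_0_covsplit and WNGS01089358.1227315_0_covsplit thus passed the limit of 10 points for differential methylation although they were kept, and the others did not.

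Among the 28 kept gene models with a recurring value, the levels were often round. WNGS01164437.2133154_0_covsplit was at 83.3% in KD 1 and 80% in KD 2, against 50% in control 1 and 80% in control 2. WNGS01053727.969246_0_covsplit was at 71.4% in KD 1 and 66.7% in KD 2, against 53.8% in control 1 and 66.7% in control 2. In both, KD 2 and control 2 had the same level and control 1 was the lowest animal, so that the control mean was pulled down by control 1. WNGS01061674.1018937 was at 57.1% in KD 1 and 71.4% in KD 2, against 61.1% in control 1 and 55.6% in control 2. WNGS01163813.2084769_2_covsplit was at 83.1% in KD 1 and 88.9% in KD 2, against 91.1% in control 1 and 75% in control 2. All 4 had a KD average above the control average, with gaps between the controls of 5.56 to 30.0 points. Control 1 was listed at 100% in 5 of the 28 and control 2 in 2 of them.

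A stricter reading asked for 80% of each control rather than of their mean. This was met in both KD animals by 24 gene models. All of them are among the 51 kept ones by definition, since a value that reaches 80% of each control also reaches 80% of their mean. Of these, 10 had no recurring value. They included 8 gene models given above, namely WNGS01051455.944010_0_covsplit, WNGS01059977.1002451_0_covsplit, WNGS01167089.2504520_0_covsplit, WNGS01164610.2195374_0_covsplit, WNGS01009888.602203_0_covsplit, WNGS01164800.2200334_0_covsplit, WNGS01029257.748345_0_covsplit and WNGS01000672.79865_2_covsplit. The other 2 were WNGS01092210.1268947 and WNGS01095998.1303251_0_covsplit. WNGS01092210.1268947 was at 62.2% in KD 1 and 68.1% in KD 2, against 73.4% in control 1 and 75.4% in control 2. WNGS01095998.1303251_0_covsplit was at 61.6% in KD 1 and 61.1% in KD 2, against 74.8% in control 1 and 64.1% in control 2. In both, each KD animal lay below each control.

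The kept gene models were spread over many identifier prefixes. The 51 kept gene models carried 44 different prefixes, and 40 of them were alone on theirs. WNGS01164858 held the most, with 4 of 155 candidates (2.58%), which is near the share over all candidates (2.22%). The 4 prefixes with most gene models in the table held 9 of the 51 kept gene models (17.6%) and 22.1% of the other candidates. WNGS01000690 held 2 of only 12 candidates. Identifiers that carry the covsplit ending made up 39 of the 51 (76.5%), against 89.1% of the other candidates.

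The kept gene models with prefix WNGS01164858 were not alike in level. WNGS01164858.2215055 was at 60.0% in both KD animals, against 66.7% in control 1 and 57.1% in control 2. WNGS01164858.2215496 was at 55.0% in KD 1 and 60.0% in KD 2, against 62.5% in control 1 and 67.5% in control 2. WNGS01164858.2215558 follows it directly in the table and was at 79.5% in KD 1 and 75% in KD 2, against 100% in control 1 and 84.5% in control 2. These were the only kept gene models that stood next to each other under 1 prefix. WNGS01164858.2218147, the only one of the 4 without a recurring value, was at 60.2% in KD 1 and 65.7% in KD 2, against 77.1% in control 1 and 61.0% in control 2.

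Other rows of the same split gene model could be read for a few of the kept ones. For 4 kept gene models the table held further rows with the same identifier before the split number, 7 in all, of which 5 were candidates and none was kept. With 2.22% of all candidates kept, none of 5 says nothing particular about them. WNGS01000672.79865_2_covsplit, described above, had a companion row, WNGS01000672.79865_3_covsplit, at 26.7% in KD 1 and 32.9% in KD 2, against 80.4% in control 1 and 80% in control 2. In the companion the KD average was 37.2% of the control average, while it was 89.0% in the kept row. For WNGS01163813.2084769_2_covsplit the companion rows were at 35.7% and 79.4% of the control average. For WNGS01165858.2442731_21_covsplit the 3 companion rows were at 52.7%, 64.6% and 74.7%, and for WNGS01000009.5702_3_covsplit the companion was at 69.9%.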

How the data were processed

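The members and the measures used to describe them were chosen with earlier results of these data known. The authors trimmed paired reads with Trim Galore (v0.6.6), aligned them to a genome of the species by Bismark (v0.20.0) running Bowtie2 (whose version differs between the sources), removed duplicates, dropped cytosines with a combined coverage under 10 and kept genes with at least 10 CpGs. The genome build is not given in the sources used here. Deposited values are average methylation fractions per gene and animal, from 0 to 1, printed here as percent. No scaling between animals was stated, and no per-gene depth is given.

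Groups follow the labels, with 2 animals each. The choice of members used both groups, so no test was run between them, and values are descriptions (Python v3.11.15, pandas v2.3.3). Values have 6 significant digits and were compared with a tolerance of 1e-06. The selection was tested on simulated data. There both controls were equal and the KD values carried no noise, so the counting was checked and not the effect of noisy controls. Gene models named in the text follow fixed rankings: highest lower KD ratio (8 without and 4 with a recurring value), 3 on either side of the limit, the prefix with most members and the 4 with the smallest gaps. Companion rows and those kept against each control were added after their values were seen. Alternatives were other limits, other denominators, leaving out each animal and leaving out kinds of rows.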

Additional observations from a re-analysis of the deposited data

How the results depend on the processing

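The observed number exceeded the product of the shares under all 17 alternatives that give both, by 1.48 to 4.91 times. Most of these divide both KD animals by a shared control. They do not include candidates with a recurring value read against separate controls, where the observed number was 0.785 and 0.934 times the product. A ratio limit of 0.7 gave 209 kept gene models against a product of 141, and one of 0.9 gave 17 against 3.46. Division by the higher control gave 24 against 8.76, and by the lower control 124 against 56.9. Those 24 are the gene models kept against each control above, since passing the higher control implies passing the lower. Without rows of recurring values the numbers were 23 and 6.14. Leaving out 1 animal gave 56 to 264 gene models, namely 94 when control 1 was dropped, 177 when KD 1 was and 264 when KD 2 was, the last 2 with a single KD animal to pass. The product was 20.1 to 38.2 without 1 control, the higher value without control 1. With the replicate block, in which each KD animal is read against the control of its number, the numbers were 39 and 25.9. Deviations of same-numbered animals correlated at 0.0220 over candidates, which cannot show whether same-numbered animals were handled together. The study lists more reads and a higher depth for control 1 and KD 1 than for control 2 and KD 2. Chosen after seeing the data, scaling KD 2 to the median of KD 1 gave 83 against 41.2, and leaving out rows of 4 simple fractions gave 32 against 12.5. The share of kept gene models with a recurring value (54.9%) became 70.6% when 2 gene models sufficed and 38.3% at a ratio limit of 0.7. In the other candidates the share also rose, from 26.3% to 39.0%, when 2 gene models sufficed. The share carried over to the second KD animal (15.8%) became 25.4% when chosen on control 1 and KD 2, and 30.1% at a ratio limit of 0.7. Among candidates not chosen, the share rose as well, from 9.87% to 15.1% when chosen on control 1 and KD 2. The causes were not tested. The unknown depth per gene model limits every single value.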

Other observations

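Gene models with both controls at 90% or more, which the choice leaves out, were kept at a like rate. Of 228 such gene models, 5 were at 80% or more of the control mean in both KD animals (2.19%), 22 in KD 1 and 16 in KD 2.

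Gene models next to a kept one by identifier number under the same prefix were read as a further value. The 51 kept gene models had 42 such neighbours of another gene model, of which 36 had a control mean of at least 10%. Their KD average was at a median of 64.5% of the control average, with quartiles of 57.4% and 73.5%. Next to the other candidates, the median was 60.4% over 1361 neighbours, with quartiles of 52.8% and 67.5%. Of the 20 neighbours of kept gene models that were candidates, 2 were kept (10%), against 17 of 756 next to the other candidates (2.25%). The 2 are a single adjacent pair with prefix WNGS01164858, counted once from each side. Whether identifier numbers follow the order along the genome is not given in the sources used here.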
